A study of Homo sapiens with 18 samples.

Results

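The genes described here encode the constitutive subunits of the 26S proteasome. They were chosen by name, as genes whose symbol is PSMA, PSMB, PSMC or PSMD followed by a number, without the inducible PSMB8 to PSMB10, PSMB11 and pseudogenes. Of 19775 genes with a probe set annotated to them alone, 31 were such genes, and 30 of these were bright enough on at least 3 arrays to be tested among 14418 genes. By role, 7 of 8 genes of the alpha ring were measured, 3 of 3 catalytic and 4 of 4 other genes of the beta ring, 5 of 6 ATPases and 3 of 3 other genes of the base, and 6 of 8 lid genes. The list also took in the 3 assembly chaperones PSMD5, PSMD9 and PSMD10, which carry the name but are not part of the finished particle. PSMA6 was on probe sets shared with PRORP and stayed outside the rule, and PSMC5, PSMD7 and PSMD13 were not analysed here.

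The study asked how tumor-initiating cells of osteosarcoma, a bone cancer, differ from the bulk of the tumor. Cells of 2 established osteosarcoma lines of human origin were used, MNNG/HOS (written MNNG here) and 143B. All cells carried the fluorescent protein ZsGreen and were stained with PKH26, a membrane dye that dividing cells dilute, before they grew as orthotopic bone tumors. Tumor cells that kept the dye (High, PKH26Hi, called tumor-initiating by the labels) and tumor cells that had lost it (Low, PKH26Lo, the bulk) were sorted, with 150000 High and 700000 Low cells stated per bone tumor sample, and 100 ng of RNA went onto each human 3' expression array. The 5 groups were MNNG_High (n = 4) and MNNG_Low (n = 4) from the same tumors (MNNG-1231 to MNNG-1233, with MNNG-1235), 143B_High (n = 3), 143B_Low (n = 5, tumors 143B-1251 to 143B-1255) and MNNG_Lung (n = 2, lung metastases of animal MNNG-1233 and a sample labelled Mix). In 143B_High 1 array held tumor 143B-1253 and the other 2 held pools of 2 tumors, 143B-51&52 and 143B-54&55. The sources used here give neither the strain and age of the host animals nor whether the lung cells were sorted. Each model is a xenograft of a single cell line, so its tumors are replicates of the graft.

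The proteasome is the barrel-shaped protease that degrades proteins tagged with ubiquitin. Its core is a stack of rings, with alpha subunits that gate the entrance and beta subunits that line the chamber, among which only PSMB5, PSMB6 and PSMB7 cut peptide bonds. A regulatory cap sits on the core, with a base of ATPases that unfold and thread the substrate and a lid that removes the ubiquitin chain. Dividing cells use it to remove cyclins and other cell cycle proteins, bone-forming cells use it to limit RUNX2, the transcription factor of the osteoblast lineage, and proteasome inhibitors kill many tumor lines in culture. Subunit genes are transcribed together under NFE2L1, a factor that binds antioxidant response elements, and many have CCAAT boxes, the sites of the factor NF-Y.

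Promoters of some of the genes that held a match are printed, so that their elements can be set beside the values. The 250 bases before the start of transcription (RefSeq, GRCh38.p14) were found for 26 of the 31 genes, in 30 windows since some genes have several starts. They were searched on both strands for TGANTCAGC, a narrow form of the antioxidant and MAF response element, and for CCAAT, neither of which contains the other. Other forms of the antioxidant response element were not searched, so a window without TGANTCAGC may still hold one. CCAAT occurred in at least 1 window of 13 of the 26 genes (50%), against 10102 of 27305 genes in all (37%). By window it was 13 of 30 (43.3%), against 11240 of 35116 (32%). TGANTCAGC occurred for 1 of the 26 genes (3.85%), PSMD9, against 374 of all genes (1.37%), and in 1 of the 30 windows (3.33%), against 389 of all windows (1.11%). PSMA5 (chr1:109426449-109426698, minus strand) and PSMB3 (chr17:38752491-38752740, plus strand) held 2 CCAAT matches each, and PSMD8 (chr19:38374321-38374570, plus strand) held 1 on the opposite strand, where it reads ATTGG. The window of PSMD9 is chr12:121888540-121888789, plus strand. Capitals mark the matches, and every line reads 5′ to 3′ towards the start site. The windows of PSMD2, PSMA1 and PSMC4, not printed, held neither motif, which says only that these letters are not there.
PSMA5: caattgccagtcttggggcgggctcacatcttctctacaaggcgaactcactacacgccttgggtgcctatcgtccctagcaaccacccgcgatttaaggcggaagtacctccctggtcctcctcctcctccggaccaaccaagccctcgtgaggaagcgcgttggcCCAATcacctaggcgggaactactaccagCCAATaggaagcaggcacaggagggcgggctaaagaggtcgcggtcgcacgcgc
PSMB3: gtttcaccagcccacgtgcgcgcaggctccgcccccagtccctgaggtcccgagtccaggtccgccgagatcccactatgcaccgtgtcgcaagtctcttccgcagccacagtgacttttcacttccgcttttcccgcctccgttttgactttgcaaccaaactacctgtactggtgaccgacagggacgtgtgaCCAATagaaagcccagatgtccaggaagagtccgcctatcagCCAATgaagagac
PSMD8: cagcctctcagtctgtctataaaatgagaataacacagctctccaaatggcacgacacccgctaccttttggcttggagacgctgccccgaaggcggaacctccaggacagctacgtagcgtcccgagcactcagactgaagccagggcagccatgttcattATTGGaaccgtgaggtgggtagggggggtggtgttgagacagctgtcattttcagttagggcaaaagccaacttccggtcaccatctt
PSMD9: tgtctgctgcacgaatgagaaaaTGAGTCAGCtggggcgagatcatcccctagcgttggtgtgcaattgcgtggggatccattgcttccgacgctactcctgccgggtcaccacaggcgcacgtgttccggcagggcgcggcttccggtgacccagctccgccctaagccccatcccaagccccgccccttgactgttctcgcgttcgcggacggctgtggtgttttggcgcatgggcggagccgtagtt

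On the bone tumor arrays the subunit genes were bright and varied little from tumor to tumor. The mean log2 signal of the 30 genes was 11.06 to 11.19 on the MNNG_Low arrays, 10.72 to 10.82 in MNNG_High, 11.01 to 11.14 in 143B_High and 11.12 to 11.18 in 143B_Low. Within bone tumor groups their residual SD had a median of 0.12 on the log2 scale, against 0.21 for all tested genes. PSMD10 varied most, with an SD of 0.38, followed by PSMB7 (0.22), PSMD3 (0.21) and PSMD5 (0.20). PSMA8, a germ cell relative of the alpha ring gene PSMA7, lay between 2.71 and 3.39 on the 16 bone arrays and at 4.18 and 4.28 on the lung arrays, all under the filter value of 5.36 (the median of the table), so it was not tested.

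The arrays differed in ways that touch every result. Log2 signals had an interquartile range of 3.29 to 3.40 in MNNG_Low, 2.76 to 3.18 in MNNG_High, 3.26 to 3.34 in 143B_High, 3.30 to 3.48 in 143B_Low and 2.09 and 2.28 on the lung arrays. The lung arrays stood apart and entered the fit, and counts without them are given beside the main ones. Of 12 macrophage markers on the array, 5 reached the filter value in MNNG_Low, 7 in MNNG_High and all 12 on the lung arrays, and their mean signal was 4.88 to 5.07, 5.57 to 5.99 and 6.92 to 6.98. The leukocyte marker PTPRC had a mean of 3.23 in MNNG_Low and 4.06 in MNNG_High, under the filter value. Of 8 osteoblast lineage genes on the array 5 reached the filter value in MNNG_Low and in 143B_Low, namely RUNX2 (means of 10.50 and 8.83), COL1A1 (13.55 and 10.52), COL1A2, SPARC and SPP1 (5.39 and 7.88). SP7 (4.36 and 4.31), ALPL (4.06 and 3.96) and IBSP (4.50 and 4.21), which mark committed osteoblasts, lay under it in both. The sample descriptions carry 3 date tags whose meaning is not given. Tag 1 holds 3 of the 4 MNNG_Low arrays, tag 2 holds Low MNNG-1231 with all MNNG_High and lung arrays, and tag 3 holds all 143B arrays, so date tag and fraction in MNNG can be told apart only through Low MNNG-1231, and date tag and line cannot be told apart.

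**Figure D1:**
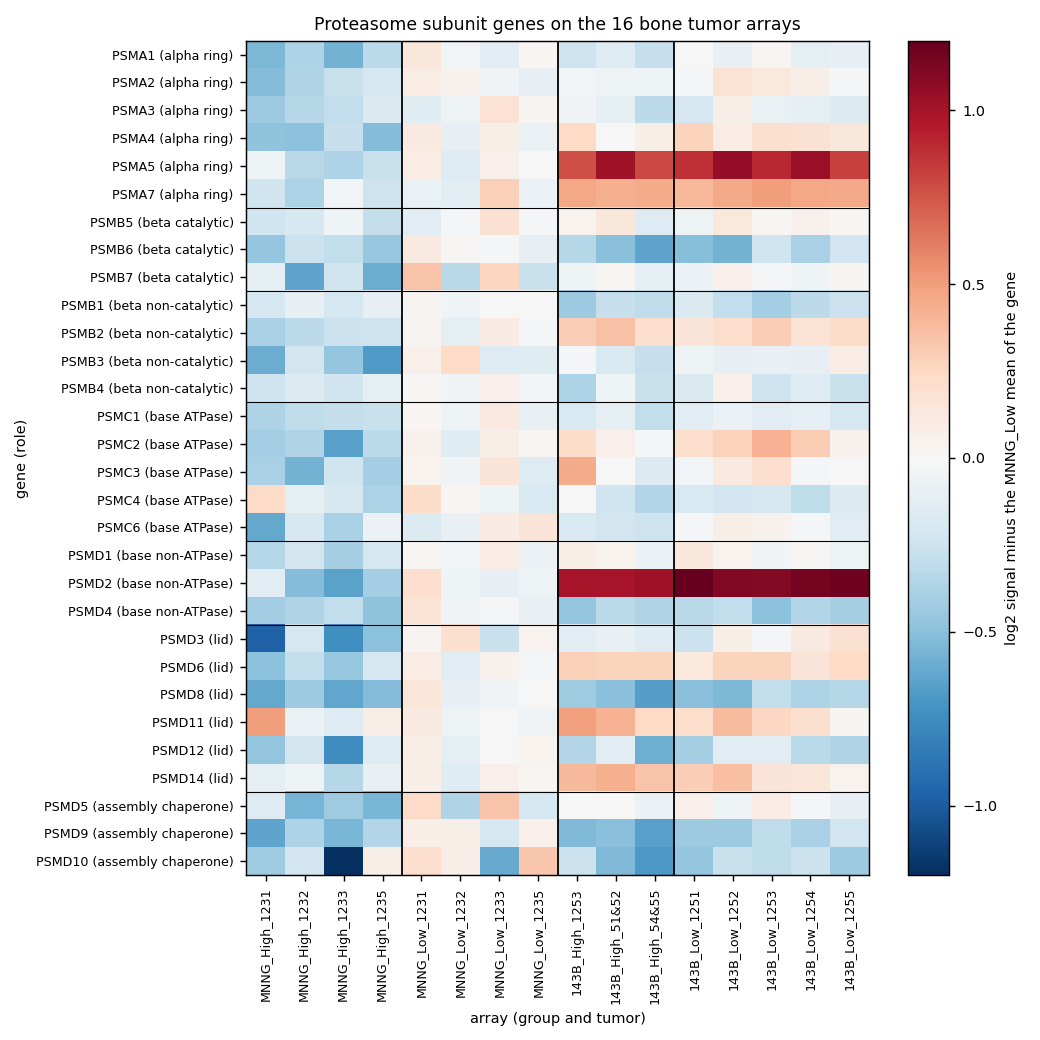
Log2 signal of the 30 tested proteasome genes (rows, ordered by role) on the 16 bone tumor arrays (columns, by group and tumor), each as the difference from the gene's mean in MNNG_Low; red is higher and blue lower, with the scale from -1.2 to 1.2 and values beyond it in the end colours. MNNG_High is mostly blue, most rows of 143B are pale, and PSMA5 and PSMD2 are dark red on all 8 arrays of 143B.

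Dye-retaining MNNG cells had lower signals of some proteasome genes than the bulk cells of the same tumors. Of 30 genes 8 were lower and 0 higher in MNNG_High, against 15.5% of all genes lower and 26.1% called in either direction (limma, adjusted p under 0.05). The differences were small. The median over the 30 genes was -0.36 on the log2 scale, with all but PSMD11 (0.09 ± 0.18) below 0, against a median of -0.19 over all tested genes. The 5977 genes with a mean of at least 8 in MNNG_Low, a level chosen after the values were seen, had a median of -0.35, and 23.6% of them were lower. The median shift of the proteasome genes lay close to theirs. The 5977 genes were less bright on average, with array means of 9.65 to 9.71 in MNNG_Low, against 11.06 to 11.19 for the proteasome genes. A set matched in level was not compared.

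PSMD8, a lid subunit that joins late in lid assembly, had the smallest adjusted p. Its log2 signal was 10.96, 10.72, 10.77 and 10.82 in MNNG_Low (tumors in order of their number, here and below) and 10.21, 10.38, 10.19 and 10.30 in MNNG_High of the same tumors. Every High array lay below every Low array, with a difference of -0.55 ± 0.11 (SE, n = 4 and 4, adjusted p = 0.0054). PSMD3, a scaffold subunit of the lid, had the largest fall among the genes called. It was at 9.07, 9.23, 8.77 and 9.08 in MNNG_Low and at 8.07, 8.84, 8.30 and 8.54 in MNNG_High. The groups overlapped, since High MNNG-1232 lay above Low MNNG-1233, while within each tumor High was the lower (-0.60 ± 0.15, adjusted p = 0.0145). Without High MNNG-1231, its lowest array, the difference was -0.48 and not called (adjusted p = 0.0546).

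PSMB3, a beta ring subunit without catalytic activity, was at 11.71, 11.89, 11.49 and 11.51 in MNNG_Low and at 11.06, 11.43, 11.19 and 10.97 in MNNG_High. The groups did not overlap (-0.49 ± 0.13, adjusted p = 0.0154). PSMA1, an alpha ring subunit, was at 11.92, 11.75, 11.65 and 11.80 in MNNG_Low and at 11.24, 11.41, 11.21 and 11.47 in MNNG_High, again without overlap (-0.45 ± 0.11, adjusted p = 0.0102). The other genes called were the base ATPases PSMC2 (-0.43 ± 0.15) and PSMC3 (-0.40 ± 0.14), PSMD2 (-0.43 ± 0.13), the base subunit that docks ubiquitin shuttle proteins, and PSMD4 (-0.39 ± 0.12), a ubiquitin receptor. For 19 of the 30 genes all High arrays lay below all Low arrays, against 19.4% of all genes and 33.1% of the genes at 8 or more in MNNG_Low.

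None of the catalytic subunits passed the test. PSMB5, which carries the chymotrypsin-like activity and is the main target of bortezomib, was at 11.12, 11.22, 11.43 and 11.23 in MNNG_Low and at 11.01, 11.06, 11.20 and 10.96 in MNNG_High (-0.19 ± 0.16, adjusted p = 0.334). PSMB6, with the caspase-like activity, was at 12.42, 12.33, 12.29 and 12.21 against 11.85, 12.05, 12.02 and 11.86 (-0.37 ± 0.16, adjusted p = 0.0839). The High arrays of PSMB6 all lay below its Low arrays, and those of PSMB5 overlapped. PSMB7, with the trypsin-like activity, differed by -0.40 ± 0.16 (adjusted p = 0.0699). Of the remaining alpha ring genes PSMA4 was at -0.44 ± 0.30, PSMA2 at -0.34 ± 0.25, PSMA3 at -0.31 ± 0.24, PSMA5 at -0.26 ± 0.13 and PSMA7 at -0.22 ± 0.17, none called. PSMB1 (-0.15 ± 0.60) and PSMB4 (-0.19 ± 0.49) had the widest errors, and on these genes the 2 lung arrays differed most from each other. PSMB2, the remaining beta ring gene, was at -0.30 ± 0.24. Of the other base genes PSMC1 was at -0.31 ± 0.16, PSMC6 at -0.31 ± 0.21, PSMD1 at -0.29 ± 0.20 and PSMC4 at -0.12 ± 0.17. Of the other lid genes PSMD12 was at -0.40 ± 0.28, PSMD6 at -0.36 ± 0.24 and PSMD14 at -0.15 ± 0.32, and none of these 8 genes was called.

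Probe sets not chosen for their gene did not always give the same call. Over the 53 tested probe sets of the 30 genes, fitted with all 26556 tested probe sets, 17 were lower in MNNG_High and 1 was higher. The share lower over all probe sets was not computed, so these counts have no background of their own. In the fit by gene 15.5% of all genes and 23.6% of the bright genes were lower. The probe sets had the same sign throughout for 12 of 16 genes with several. The higher one was a probe set of PSMB4, at 0.82 ± 0.21 (adjusted p = 0.0147) with a mean of 8.89 in MNNG_Low, while a brighter one of that gene was at -0.23 ± 0.13. Among genes not called above, other probe sets were lower for PSMA2 (-0.65 ± 0.14, adjusted p = 0.00788), PSMA7 (-0.60 ± 0.15, adjusted p = 0.0142), PSMA3 (-0.59 ± 0.21, adjusted p = 0.0468), PSMB2 (-0.67 ± 0.18, adjusted p = 0.0155) and PSMD12 (-0.77 ± 0.24, adjusted p = 0.0282). Those of PSMA3 and PSMB2 were dim, with means of 6.63 and 5.19 in MNNG_Low.

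Most subunit genes had lower signals in High than in Low in each MNNG tumor, as did most bright genes. High was below Low for 28 of 30 genes in tumor MNNG-1231, 29 in MNNG-1232, 30 in MNNG-1233 and 29 in MNNG-1235, with medians of -0.44, -0.24, -0.40 and -0.25, and 27 genes were below in all 4 tumors. Of all genes 59.1% to 65.3% were below in a tumor and 41.8% in all 4, and of the genes at 8 or more in MNNG_Low 76% to 91.5% and 66%. With the tumor as a replicate block, fitted without the lung arrays, 23 of 30 genes were lower, against 37.6% of all genes and 59.2% of the genes at 8 or more. In that fit 55.8% of all genes were called in either direction. Without the lung arrays and without the block, 21 were lower, against 28.8% of all genes and 46.8% of the bright genes, with 44.4% of all genes called. With the block the catalytic genes PSMB6 (adjusted p = 0.012) and PSMB7 (adjusted p = 0.0054) and the chaperones PSMD5, PSMD9 and PSMD10 were called, and PSMB5 was not (adjusted p = 0.111). Leaving out the lung arrays was enough for the calls of PSMB6 (limma, adjusted p = 0.015), PSMB7 (adjusted p = 0.0446), PSMD5 and PSMD9. PSMD10 (adjusted p = 0.107) and PSMB5 (adjusted p = 0.119) were not called without the block. The count was 20 with array weights, against 39.3% of all genes called and 24.4% lower. It was 4 without High MNNG-1231 (9.54% of all genes called, 5.53% lower), Low MNNG-1231 (15.7%, 8.57%) or Low MNNG-1233 (11.6%, 6.69%). It was 5 without Low MNNG-1232 (16.8%, 10.2%), High MNNG-1233 (11.6%, 7.14%) or Low MNNG-1235 (15.1%, 9.33%). With each of these arrays left out the calls over all genes fell as well. They did not fall without High MNNG-1232 (26.7%, 15.8%), where the count was 6, or without High MNNG-1235 (41.2%, 24.5%), where it was 8. The 3' minus 5' signal of GAPDH, a sign of RNA integrity, was 0.50 to 0.75 in MNNG_High and 0.34 to 0.41 in MNNG_Low, without overlap. That of ACTB went the other way, at 0.75 to 1.55 in MNNG_High and 1.38 to 1.74 in MNNG_Low, with overlap. After adjustment for the GAPDH signal the count was 4, against 10.7% of all genes called and 6.42% lower. The median was then -0.11, against -0.10 over all and -0.25 over the bright genes. The part of RNA integrity in the lower signals was not tested further. The count was 0 after a second quantile normalization of the table, where the median was -0.13 and that of all genes 0.01. There 7.36% of all genes were called and 2% were lower. With the date tag as a covariate the median was -0.45 and 0 were called, against 0.0208% of all genes, in a contrast that rests on Low MNNG-1231 alone. Macrophage markers were higher in MNNG_High (4 of 7 tested), as were 1 of 2 endothelium and 1 of 3 lung epithelium markers. None of 2 lymphocyte and 2 erythroid markers was called. Over all genes 1532 of 14418 were higher. Proliferation genes were lower (4 of 10), against 15.5% of all genes and 23.6% of the bright genes. The part of the genes of these lists in the lower signals was not tested. In such bulk samples, fewer cells of a type and less RNA per cell cannot be told apart.

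**Figure D2:**
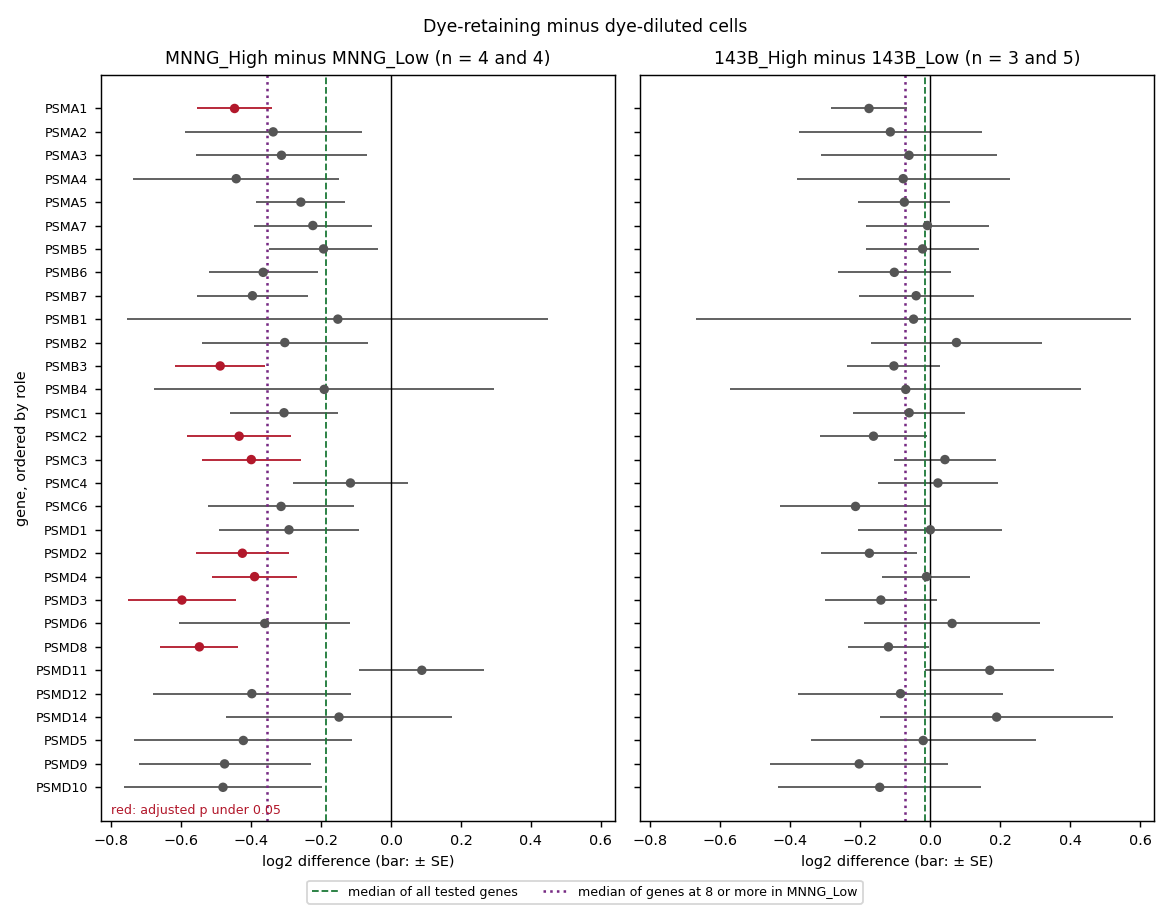
Difference of High minus Low for each tested gene in MNNG (left) and 143B (right) on the log2 scale, with bars for the standard error of the limma fit; red marks adjusted p under 0.05, the dashed line the median of all tested genes and the dotted line the median of genes at 8 or more in MNNG_Low. In MNNG 29 of 30 points lie left of 0 around the dotted line, and in 143B the points lie between -0.21 and 0.19.

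In 143B no subunit gene passed the test between High and Low cells. Of 30 genes 0 were called (limma), 0 had an unadjusted p under 0.05, and the background was 1 called gene, 0.00694% of 14418. The differences ran from -0.21 (PSMC6, a base ATPase) to 0.19 (PSMD14, the lid enzyme that cuts off the ubiquitin chain), with a median of -0.07, against -0.02 over all genes and -0.07 over the bright genes. The smallest p values belonged to PSMA1 (-0.18 ± 0.11), PSMD2 (-0.17 ± 0.14) and PSMC2 (-0.16 ± 0.15), each with adjusted p = 0.999.

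PSMA1 was at 11.53 in High 143B-1253, 11.63 in pool 143B-51&52 and 11.50 in pool 143B-54&55, and at 11.79, 11.69, 11.80, 11.67 and 11.68 in Low of tumors 143B-1251 to 143B-1255. Its High arrays all lay below its Low arrays. PSMD2 was at 11.76, 11.76 and 11.79 in High and at 12.11, 11.88, 11.87, 11.92 and 11.94 in Low. The High arrays of PSMD2 also lay below all Low arrays. PSMC2 overlapped, with 11.03, 10.88 and 10.80 against 11.02, 11.09, 11.23, 11.12 and 10.87. For the catalytic genes the 95% interval of the difference was -0.36 to 0.32 for PSMB5 (-0.02 ± 0.16), -0.44 to 0.24 for PSMB6 (-0.10 ± 0.16) and -0.39 to 0.31 for PSMB7 (-0.04 ± 0.16), beside differences of -0.19, -0.37 and -0.40 in MNNG. By tumor, High was below Low for 17 of 30 genes in the pool 143B-51&52, 18 in tumor 143B-1253 and 25 in the pool 143B-54&55. The shares over all genes by tumor were not computed for 143B. Between the group means 76.7% of the 30 genes and 53.6% of all genes were below 0.

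The difference of the fraction effect between the lines was tested directly. It was above 0, that is less negative in 143B, for 30 of 30 genes, while 34.8% of all genes were below 0. The median was 0.27, against 0.15 for all genes and 0.27 for the bright genes. The difference between the lines was called for 0 of 30 genes (limma, 3 at an unadjusted p under 0.05) and for 0.00694% of all genes. PSMD8 came closest (0.43 ± 0.16, adjusted p = 0.463), then PSMD4 (0.38 ± 0.18) and PSMC3 (0.44 ± 0.20), both with adjusted p = 0.494. Without the lung arrays PSMD6 came closest (limma, adjusted p = 0.196), and with the tumor block PSMD4 did (adjusted p = 0.14), neither called. The lower signals in MNNG_High are therefore not shown to be particular to that line. PSMD6, a lid subunit, lay below Low in High of all 4 MNNG tumors (-0.58, -0.17, -0.51 and -0.19) and above it in High of all 143B samples (0.07, 0.02 and 0.07), and its difference of 0.42 ± 0.35 was not called (adjusted p = 0.611).

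For some proteasome genes the MNNG tumors differed from each other in the same way in both fractions. PSMD10, an assembly chaperone of the base also known as gankyrin, which binds RB and MDM2, was at 9.75 in Low and 9.01 in High of tumor MNNG-1233. In the other tumors it lay between 10.43 and 10.67 in Low and between 9.93 and 10.42 in High. Tumor MNNG-1233 was thus lowest in both fractions. On the other probe set of PSMD10 it was lowest as well, at 9.07 in Low and 8.52 in High, with the other tumors between 9.62 and 9.83 in Low and between 9.37 and 9.51 in High. PSMB7 was high in Low of tumors MNNG-1231 and MNNG-1233 (12.18 and 12.09) and lower in MNNG-1232 and MNNG-1235 (11.50 and 11.57), and in High the same tumors were higher (11.72 and 11.59) and lower (11.20 and 11.24). Its High and Low groups overlapped, while within every tumor High was below Low. A dimmer probe set of PSMB7 did not show that order, with Low at 6.47 in tumor MNNG-1231, 6.33 in MNNG-1233 and 6.37 in MNNG-1235. PSMD5, an assembly chaperone of the base, was also higher in these 2 tumors in Low (8.73, 8.14, 8.85 and 8.29), with less spread in High (8.35, 7.94, 8.07 and 7.96), at -0.42 ± 0.31. PSMD9, the remaining chaperone and the gene with the TGANTCAGC match shown above, was at 10.11, 10.11, 9.83 and 10.09 in Low and at 9.40, 9.67, 9.48 and 9.68 in High. Its groups did not overlap (-0.48 ± 0.25, not called in the fit with the lung arrays). Over the 30 genes the deviations of High and Low of the same tumor from their group means had r = 0.59 in tumor MNNG-1231, 0.67 in MNNG-1232, 0.70 in MNNG-1233 and 0.88 in MNNG-1235, a description over genes of the same arrays.

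**Figure D3:**
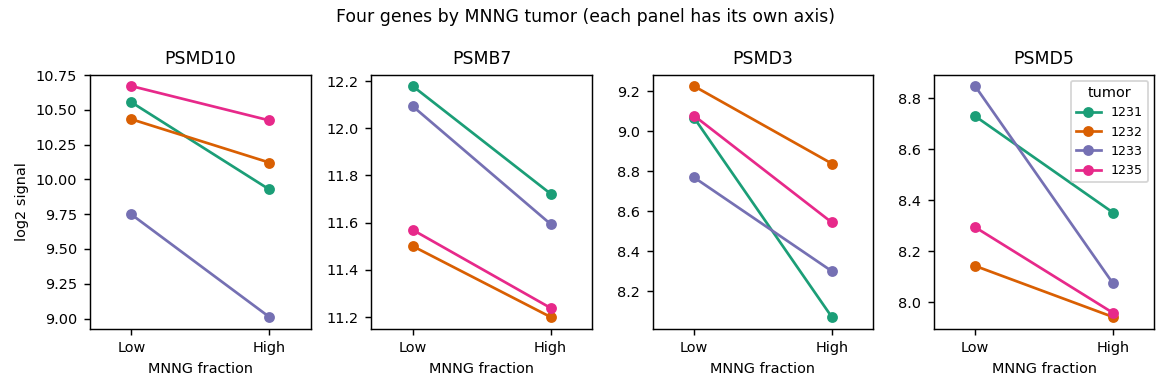
Log2 signal of PSMD10, PSMB7, PSMD3 and PSMD5 in Low and High of the 4 MNNG tumors, with a line joining the 2 fractions of a tumor; each panel has its own axis. Every line falls from Low to High, tumor MNNG-1233 is lowest for PSMD10 at both ends, and tumors MNNG-1231 and MNNG-1233 are highest for PSMB7 at both ends.

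Between the lines, most proteasome genes were not called in the bulk cells, and a few stood clearly apart. In 143B_Low 3 of 30 genes were higher than in MNNG_Low and 2 lower, against 14.4% of all genes higher and 28.8% called in either direction. The median difference was -0.004, against -0.04 over all genes. PSMD2 and PSMA5 were higher in 143B and PSMA7 somewhat higher, while PSMD8 and PSMD4 were lower.

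PSMD2, the shuttle-docking subunit of the base, was at 10.97, 10.72, 10.68 and 10.71 in MNNG_Low and at 12.11, 11.88, 11.87, 11.92 and 11.94 in 143B_Low. The lines were far apart, with a 2.25-fold higher signal in 143B (1.17 ± 0.13, n = 5 and 4, adjusted p = 1.01e-06). PSMA5, an alpha ring subunit, was at 11.25, 11.00, 11.22 and 11.17 in MNNG_Low and at 12.04, 12.22, 12.06, 12.18 and 11.98 in 143B_Low. It too was without overlap, at 1.91-fold (0.94 ± 0.12, adjusted p = 8.47e-06), and its second, dimmer probe set gave 1.14 ± 0.33. PSMD2 has a single probe set. Both genes were called under all 20 alternatives, at 0.97 to 1.24 for PSMD2 and 0.85 to 1.08 for PSMA5.

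PSMA7, another alpha ring subunit, was at 12.46, 12.42, 12.83 and 12.48 in MNNG_Low and between 12.95 and 13.05 in 143B_Low (0.45 ± 0.16, adjusted p = 0.0406). The call was lost with the date tag as a covariate (0.54), without any one of the 5 143B_Low arrays and without Low MNNG-1231, MNNG-1232 or MNNG-1235, at differences of 0.41 to 0.47, and its other probe set gave 0.42 ± 0.15. PSMD8 was lower, at 10.31, 10.28, 10.52, 10.44 and 10.48 in 143B_Low against the 10.72 to 10.96 of MNNG_Low (-0.41 ± 0.11, adjusted p = 0.00618), and kept its call under all 20 alternatives. PSMD4 was at 12.17, 11.97, 11.99 and 11.92 in MNNG_Low and at 11.68, 11.72, 11.52, 11.67 and 11.61 in 143B_Low (-0.37 ± 0.12, adjusted p = 0.0204). The groups of PSMD4 did not overlap, but the call was lost without Low MNNG-1231 (-0.32, adjusted p = 0.0791) or Low 143B-1253 (-0.34, adjusted p = 0.051), after a second quantile normalization (-0.36) and with the date tag (-0.53). Without _x_at and _s_at probe sets PSMD4 was read from a dim probe set and was at -0.18 (adjusted p = 0.428). The catalytic genes PSMB5 (0.03 ± 0.15), PSMB6 (-0.39 ± 0.15, adjusted p = 0.057) and PSMB7 (-0.01 ± 0.15) were not called. Without Low MNNG-1231 or without Low 143B-1253 the count was 3, against 23.9% and 26.1% of all genes called. Without the lung arrays it was 8 (3 higher and 5 lower, against 37.2% of all genes called). It was 12 with these 2 groups alone in the fit or with array weights, against 45.3% and 48.7%.

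Probe sets of a gene did not always give the same direction here. Among 16 members with several tested probe sets, those of 8 genes had the same sign throughout in this comparison. PSMD9 was at -0.36 ± 0.23 on its brighter probe set and at 0.56 ± 0.16 on a probe set with a mean of 5.72 in MNNG_Low. PSMD12, a lid subunit, was at -0.27 ± 0.27 on the brighter and at -0.68 ± 0.22 on the other probe set, which was called.

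**Figure D4:**
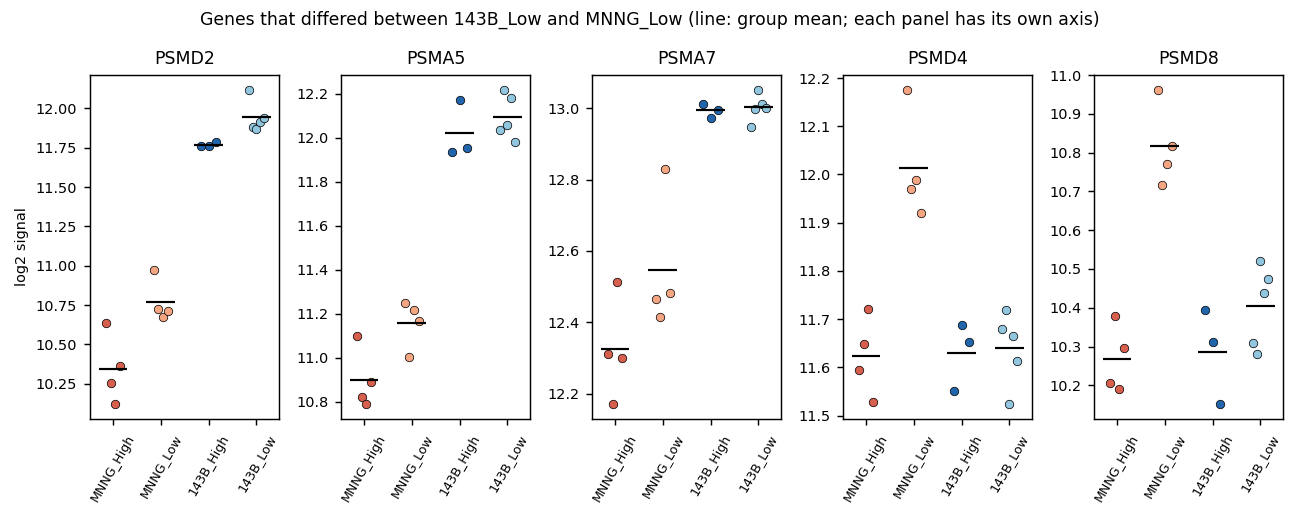
Log2 signal of PSMD2, PSMA5, PSMA7, PSMD4 and PSMD8 on each bone tumor array by group, with a line at the group mean; each panel has its own axis. PSMD2, PSMA5 and PSMA7 are higher in both 143B groups without overlap, and for PSMD4 and PSMD8 MNNG_Low is above the 3 other groups.

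The High cells of the lines were compared in the same fit, and these arrays share MNNG_High with the comparison of fractions. In 143B_High 6 of 30 genes were higher than in MNNG_High and 0 lower, against 21.4% of all genes higher and 36.1% called in either direction. The median was 0.29, against 0.01 over all genes and 0.16 over the bright genes. PSMD2 was 2.68-fold higher (1.42 ± 0.14, adjusted p = 6.91e-07) and PSMA5 2.17-fold (1.12 ± 0.14, adjusted p = 6.81e-06). PSMA7 (0.67 ± 0.18), PSMC2 (0.52 ± 0.16), PSMC3 (0.49 ± 0.15) and PSMD3 (0.47 ± 0.17) were also higher. PSMD8 (0.02 ± 0.12) and PSMD4 (0.01 ± 0.13) were not called between the High cells. PSMD2 in MNNG_High was at 10.64, 10.26, 10.12 and 10.37, well below the 11.76 to 11.79 of 143B_High. Without the lung arrays 14 genes were higher, against 26.7% of all genes and 32.4% of the bright genes, with 47.2% of all genes called in either direction. Without High 143B-1253 or after a second quantile normalization 3 were higher, against 17.3% and 12.8% of all genes. In these 2 settings 27.7% and 27.4% of all genes were called in either direction.

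On the lung metastasis arrays nearly all proteasome genes were far lower than in the MNNG bone tumors, and so were most genes at 8 or more in MNNG_Low. Against MNNG_Low 28 of 30 genes were lower and 1 higher, where 51.9% of all genes were lower and 87% called in either direction. The median was -3.08, against -0.64 over all genes and -3.01 over the genes at 8 or more in MNNG_Low, of which 89.4% were lower. Against MNNG_High 27 were lower and 1 higher, with a median of -2.65, where 47.6% of all genes were lower and 82.4% called. The ACTB 3' minus 5' signal, a measure of RNA integrity and labelling, was -2.16 and -2.97 on the lung arrays and between 0.75 and 2.82 on all bone arrays. That of GAPDH was 0.45 and 0.94 on the lung arrays, within the 0.34 to 1.04 of the bone arrays. All 10 proliferation genes were lower on the lung arrays than in MNNG_Low, and 7 of 7 tested macrophage markers and 3 of 3 tested lung epithelium markers were higher. So were 2 of 2 endothelium, 2 of 2 erythroid and 1 of 2 lymphocyte markers, against 5064 of all 14418 genes. The part of the ACTB signal, the proliferation genes and these markers in the lower proteasome signals was not tested.

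PSMB1, a beta ring subunit, was at 13.07, 12.99, 13.04 and 13.04 in MNNG_Low, at 9.95 on lung MNNG-1233 and at 4.91 on lung Mix. The lung arrays thus differed from each other by more than the fall of the former, and the mean difference of -5.61 ± 0.74 (adjusted p = 9.83e-07) was -3.09 without the Mix and -8.13 without lung MNNG-1233. PSMD10 was at 5.73 and 4.46 on the lung arrays (-5.26 ± 0.35, adjusted p = 7.08e-11), the latter under the filter value. Its other probe set fell by 1.37 ± 0.28, much less. PSMA4, an alpha ring subunit, was at 7.16 and 4.83 (-5.09 ± 0.36). PSMD14 was at 7.72 and 5.14, from between 11.22 and 11.44 in MNNG_Low (-4.94 ± 0.40). Sizes that end under the filter value are uncertain.

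The catalytic genes stayed measurable on both lung arrays. PSMB5 was at 10.01 and 9.08 (-1.70 ± 0.19), PSMB6 at 10.50 and 9.63 (-2.25 ± 0.19) and PSMB7 at 8.54 and 8.77 (-3.18 ± 0.20). By role the median was -2.25 for the catalytic and -4.11 for the other beta subunits, -3.23 for the alpha ring, -2.08 for the base ATPases, -2.36 for the other base genes, -3.86 for the lid and -3.11 for the chaperones. The smallest differences were those of PSMC4, PSMC3, PSMA5 and PSMD11. PSMC4, a base ATPase, was at 10.34 and 9.53 on the lung arrays and between 9.92 and 10.33 in MNNG_Low (-0.18 ± 0.20, adjusted p = 0.418). PSMC3 was at -0.76 ± 0.17 and PSMA5 at -0.90 ± 0.16. PSMD11, a lid subunit, was higher, at 9.86 and 10.86 against 9.72 to 9.89 in MNNG_Low (0.58 ± 0.22, adjusted p = 0.0198). That rise rested on the Mix array, without which it was 0.08 (adjusted p = 0.71), and the other probe set of PSMD11 fell by 1.43 ± 0.27. PSMA6, outside the rule because its probe sets also name PRORP, was at 12.69 and 12.59 on a probe set that lay between 12.21 and 12.66 on the bone arrays, and at 5.35 and 4.80 on another that lay between 7.29 and 8.48 there.

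**Figure D5:**
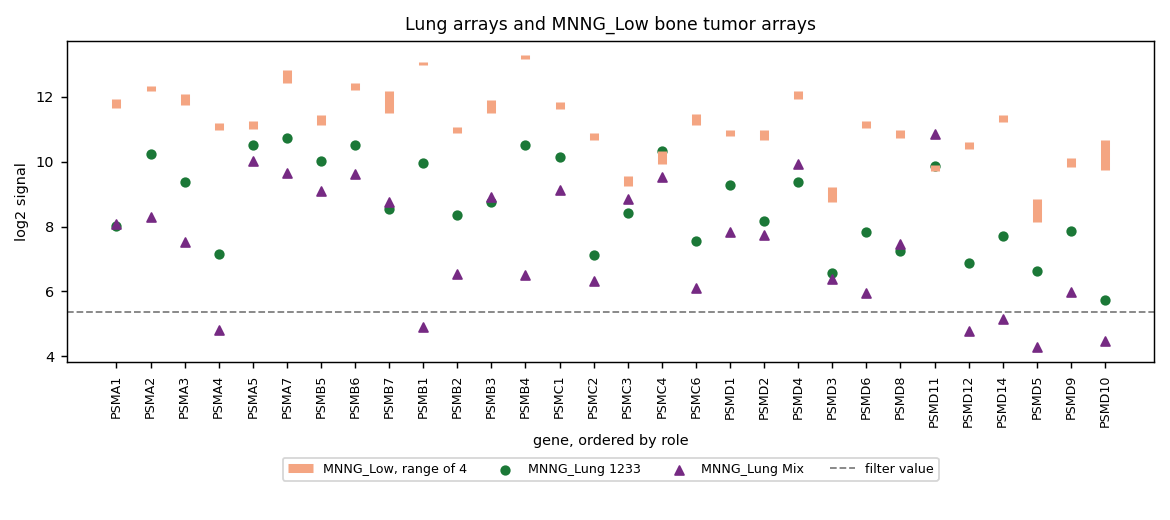
Log2 signal of each tested gene on the 2 lung arrays (circle, animal MNNG-1233; triangle, Mix) beside the range of the 4 MNNG_Low arrays (bar), with the filter value of 5.36 as a dashed line. The lung points lie below the bars except PSMC4 of animal MNNG-1233 and both points of PSMD11, and the Mix array is under the filter value for PSMA4, PSMB1, PSMD12, PSMD14, PSMD5 and PSMD10.

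Genes that work with these subunits were counted from lists chosen by function. Beside the 15.5% of all genes and 23.6% of the bright genes that were lower in MNNG_High, 3 of 7 other proteasome parts were lower, namely PAAF1, a base assembly factor (-0.76 ± 0.22), UBE3C, a proteasome-bound ubiquitin ligase (-0.47 ± 0.13), and SEM1, the smallest lid subunit (-0.31 ± 0.10). Of 5 core assembly factors PSMG3 was lower (-0.28 ± 0.10), of 4 activators and inhibitors PSMF1 was lower (-0.43 ± 0.13), of 10 substrate delivery genes UFD1 was lower (-0.49 ± 0.17), and of 2 ubiquitin-activating enzymes UBA6 was lower (-0.95 ± 0.30). None of these lists had a higher gene, and 0 of 7 genes that control subunit transcription (median -0.22), 0 of 3 inducible catalytic genes and 0 of 1 ubiquitin gene were called in either direction. In 143B 0 genes of the 8 lists were called between the fractions (limma).

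Between the lines the inducible catalytic subunits, which replace the constitutive ones after interferon, were higher in 143B_Low for 2 of 3 genes. For the lists in this comparison, the background was 14.4% of all genes higher and 28.8% called in either direction. Of the bright genes 33.8% were called. PSMB9 was 3.01 ± 0.24 higher in 143B_Low than in MNNG_Low (adjusted p = 1.88e-08), from a mean of 5.62 to 8.64, and PSMB8 was 1.31 ± 0.14 higher. PSMB10 did not pass, with means of 8.26 and 8.27. Of the assembly factors PSMG3 (0.69 ± 0.09) and PSMG4 (0.78 ± 0.28) were higher in 143B_Low, and of the other proteasome parts the ubiquitin receptor ADRM1 was higher (0.66 ± 0.15) while the deubiquitinase UCHL5 (-0.77 ± 0.17) and SEM1 (-0.42 ± 0.10) were lower. ADRM1 is known to dock on PSMD1 and UCHL5 on ADRM1. PSME3, a subunit of the nuclear activator, was higher (0.79 ± 0.20). Among 7 transcription genes MAFF was higher (1.07 ± 0.17), and NGLY1 (-0.63 ± 0.16), the glycanase that processes NFE2L1, MAFG (-0.60 ± 0.18) and NFE2L2 (-0.47 ± 0.16) were lower, while NFE2L1 itself had means of 9.30 and 9.33. Substrate delivery had VCP, the unfoldase upstream of the proteasome, higher (0.44 ± 0.13) and its cofactor NPLOC4 lower (-0.69 ± 0.25). On the lung arrays 7 of 7 other parts, 5 of 5 assembly factors, 3 of 4 activators and inhibitors, 7 of 10 delivery genes and 6 of 7 transcription genes were lower than in MNNG_Low, beside 51.9% of all genes and 89.4% of the bright genes. The genes of these lists that were higher there were PSMB9 (1.91 ± 0.30), UBA1 (0.85 ± 0.20) and FAF1 (0.51 ± 0.16).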

How the data were processed

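The 18 arrays measured total RNA of human tumor cells. As deposited, the values are on a log2 scale, 1 signal per probe set, and the submitters' processing notes name RMA as the authors' tool. RMA forces arrays toward a shared distribution and can hide or create a shift that most genes share. The sources used here give no version, genome build or set of arrays normalized together. No scanner file, detection call or count of reads applies, so the number of arrays limits the precision.

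Probe sets annotated to 1 gene were used (41097 of 54675), 1801 with several genes and 11777 with none were left out, and each gene took the probe set whose mean over the 18 arrays was highest. A gene was tested if at least 3 arrays reached 5.364, the table's median (14418 genes). Groups, tumor numbers and pools were taken from sample titles, and the pools 143B-51&52 and 143B-54&55 were taken to hold tumors 143B-1251 and 143B-1252, and 143B-1254 and 143B-1255. Tests used limma 3.58.1 (R 4.3.3) in a single fit of 5 group means over all 18 arrays, with Benjamini-Hochberg adjustment over the 14418 genes. In all 7 comparisons were made. After a difference, ± gives its standard error in the fit unless SD is named, and called means an adjusted p under 0.05.

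The fit was tested on simulated data with known changes before use.

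The same tumor gave the High and Low arrays of a number. Deviations from group means of same-numbered MNNG arrays had r of 0.494, 0.370, 0.299 and 0.579 over all genes. In 143B tumor 143B-1253 had r of 0.542, and the 4 pairings of a pool with the Low array of a tumor in it had -0.192 and 0.529 (143B-51&52) and 0.243 and 0.063 (143B-54&55). The block was fitted as an alternative.

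Members described in full are, per comparison, up to 4 called genes with the largest rise and 4 with the largest fall (or the 3 of smallest p where none was called), the catalytic genes, PSMA8 and the chaperones. The rest of each paragraph accounts for the other members by role. PSMD6 and the levels by tumor of PSMD10, PSMB7 and PSMD5 were described after their values were seen. The members, lists and rule were chosen with earlier results of these data known. Alternatives were leaving out each array or the lung arrays, array weights, only the groups compared, the tumor block, a second quantile normalization, median centring, other filters and probe set rules, and adjustment for the date tag or for the 3' minus 5' signal of GAPDH. Promoter windows came from RefSeq (GRCh38.p14), matched by symbol.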

Additional observations from a re-analysis of the deposited data

Results flagged for a closer look

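Among 93 groups of 4 or 5 arrays examined, 1 array stood apart from the others of its group in 7, where chance alone gives about 1 in 20. PSMA4 was at 10.81 in MNNG_High of tumor MNNG-1233, with the other High arrays at 10.57 to 10.60. PSMD14 was at 11.03 on the same array, below the 11.26 to 11.31 of the others. In MNNG_Low of tumor MNNG-1233 PSMA7 was at 12.83, above the 12.42 to 12.48 of the other Low arrays, and PSMD9 was at 9.83, below their 10.09 to 10.11. PSMD2 was at 10.97 in MNNG_Low of tumor MNNG-1231 (others 10.68 to 10.72) and at 12.11 in 143B_Low of tumor 143B-1251 (others 11.87 to 11.94). PSMB3 was at 11.74 in 143B_Low of tumor 143B-1255, above the 11.55 to 11.59 of the others. Tumor MNNG-1233 gave 4 of the 7.

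The fraction effect of PSMD6 ran in opposite directions in all samples of the lines, with a difference of 0.42 that was not called (limma, adjusted p = 0.611).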

How the results depend on the processing

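The count for the MNNG fractions moved most. Of 30 members, 8 were called in the fit reported, 23 with the replicate block (tumor) and without the lung arrays, 21 without the lung arrays, 20 when arrays were weighted, 4 after adjustment for GAPDH 3' minus 5', 0 after adjustment for the date tag, inside date tag 2 or after a renewed quantile normalization, and 4 to 8 with 1 array left out. Over all genes 26.1% were called in the fit reported, 55.8%, 44.4%, 39.3%, 10.7%, 0.0208%, 0% and 7.36% in the settings named, in that order, and 9.54% to 41.2% with 1 array left out, so the zeros with the date tag match the share over all genes. The members' median of -0.36 was -0.30 with weights, -0.13 after the renewed normalization, -0.47 after median centring, -0.45 with the date tag or within tag 2 and -0.11 with the GAPDH covariate. That of the genes at 8 or more in MNNG_Low, -0.35 in the fit reported, was -0.23, -0.07, -0.46, -0.34 and -0.25, in that order. The 143B median was 0.041 with the GAPDH covariate. The median difference between the lines (0.27) was 0.13, 0.34, 0.35, 0.39 and 0.18 after the renewed normalization, after centring, without _x_at and _s_at probe sets, with the date tag and with GAPDH, and 0.25 to 0.33 with 1 array left out. For the Low cells of the lines, 12 members were called with only these groups or with weights, 8 without the lung arrays, 3 without _x_at and _s_at probe sets (22 tested) or with the date tag, and 3 to 5 with 1 array left out (over all genes 28.8% in the fit reported, then 45.3%, 48.7%, 37.2%, 28.4% and 11.1%), and the median was 0.27 with GAPDH. For the High cells, 14 were called without the lung arrays or with weights, 3 after the renewed normalization and 3 to 7 with 1 array left out (over all genes 36.1% in the fit reported, then 47.2%, 53.3% and 27.4%), and the median of 0.29 was 0.19 with weights, 0.12 after the renewed normalization, 0.36 after centring, 0.21 with the mean over probe sets and 0.38 with GAPDH. The lung medians were -2.04 and -1.86 after the renewed normalization (Low and High) and -2.48 and -1.96 with the mean over probe sets, and -3.52 to -2.60 against Low with 1 array left out. PSMD11 on the lung arrays turned to -0.42 with the mean over probe sets and to -1.43 without _s_at probe sets. The date tag term separates only tags 1 and 2, since tag 3 is the 143B arrays. The cause of these moves was not tested. The tumor block could not be fitted for the comparisons of lines or with the lung. In 143B and for the difference between lines it changed no call.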
